A study of Mus musculus with 8 samples.

Results

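Levels of 63 genes for proteins of the core spliceosome and for heterogeneous nuclear ribonucleoproteins (hnRNPs) were followed in mouse muscle stem cells. The genes were chosen by symbol from the 24328 symbols measured: the Snrp, Sf3a, Sf3b, U2af and Prpf genes, Lsm1 to Lsm8, and the Hnrnp genes with 1 of them left out. Of these, 44 code for proteins of the small nuclear ribonucleoproteins (snRNPs) and their partners and 19 for hnRNPs. All 63 had at least 1 FPKM in at least 2 libraries, a minimum that 12515 genes met. FPKM is the number of fragments over transcript length and library size, a level per length, so levels of different genes can be set side by side.

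The 8 libraries formed 4 groups of 2. All came from skeletal muscle of C57BL/6 mice aged 2 months, from cells sorted as Vcam+, CD31-, CD45- and Sca-1-. PFA-perfused cells were fixed with paraformaldehyde by perfusion of the mouse, carried the Pax7-nGFP genotype label and had their RNA purified with a kit for fixed tissue. PBS-perfused cells carried the same genotype label, came from mice perfused with buffer and were not fixed. Unperfused cells came from wild-type mice without perfusion. Injury-activated cells came from wild-type, unperfused mice 2.5 days after an injury whose agent is not given in the sources used here. RNA of the last 3 groups was purified with another kit, so fixation and kit cannot be told apart, nor can perfusion and genotype between PBS-perfused and unperfused cells. More than a single sequencer is mentioned for the series, and the machine used for each group is unknown. A difference in sequencer between groups could therefore not be tested. Whether paired libraries came from different animals is not in the labels. The p-values thus reflect the spread between libraries alone, and part or all of that spread may be technical.

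The spliceosome cuts introns out of pre-mRNA and is built from the U1, U2, U4, U5 and U6 snRNPs, each a small nuclear RNA with a ring of proteins and its own specific subunits. U1 marks the 5' splice site, U2AF and U2 with its SF3 complexes mark the 3' splice site and branch point, and the U4/U6.U5 tri-snRNP then joins to form the catalytic machine. The hnRNPs coat nascent transcripts and steer which exons are kept, and the muscle stem cells, or satellite cells, are known for a small cytoplasm and low RNA content at rest that grow when they are activated by injury.

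The 63 genes together made up 0.823 and 0.670% of the summed FPKM after PFA perfusion, 0.903 and 0.838% after PBS perfusion, 1.02 and 0.788% without perfusion and 1.52 and 1.57% after injury. Both injury-activated libraries lay above the other 6. The satellite cell marker Pax7 stood at 328 and 567, 48.3 and 79.6, 19.8 and 20.4, and 4.59 and 4.40 FPKM in the same order. The sum of 12 satellite cell markers, Pax7 among them, ran otherwise, at 2092 to 2357 FPKM after PFA perfusion, 4643 to 5136 after PBS perfusion, 30419 to 43667 without perfusion and 1503 to 1544 after injury. Of the 12, 4 were higher and 6 lower in unperfused than in PFA-perfused cells (backgrounds 17.4% and 56.3% of all tested genes). With the scaling described below, 5 were higher and 4 lower (backgrounds 36% and 31.9%). Myf5, another of the 12, stood at 311 and 229, 142 and 93.1, 1261 and 2598 and 82.8 and 80.9 FPKM. It made up only a small part of the unperfused sum. After injury, 1 of the 12 markers was higher and 9 lower than in unperfused cells (backgrounds 40.8% and 29.3%). The counts with that scaling were the same (backgrounds 36.2% and 36.8%). Rn45s, the ribosomal RNA precursor, reached 9.80 and 19.4% after PFA perfusion and at most 6.64% in any other. A second way to make libraries comparable, scaling by the trimmed mean of ratios, shifted the median log2 change of all 12515 genes. The median went from -0.50 to -0.01 when PBS-perfused cells were set against PFA-perfused ones, and from -0.81 to 0.05 when unperfused cells were. With unperfused cells set against PBS-perfused ones it went from -0.36 to -0.00, and with injured against unperfused muscle from 0.17 to -0.06. Counts over the 63 genes and their main families are therefore given as deposited and after this scaling. Values of single genes are as deposited unless a scaled value is named, and so are orders and overlaps of groups. Scaling divides by 1.65 and 1.52 after PFA perfusion, 1.03 and 0.998 after PBS perfusion, 0.769 and 0.611 without perfusion and 0.930 and 0.889 after injury. An order or overlap of groups can change with it. No test compared injury-activated cells with PFA-perfused or PBS-perfused cells. Changes are differences of log2(FPKM + 1), given with the standard error of limma's fit, and for genes at low levels they are smaller than the true change. In such bulk libraries, fewer cells of a type and less RNA per cell cannot be told apart.

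Whether unperfused cells stand for cells at rest was not tested. Myod1, a myogenic factor, stood at 150 and 150 FPKM after PFA perfusion and 703 and 794 after PBS perfusion. It stood at 377 and 259 FPKM without perfusion and 42.8 and 40.7 after injury. The summed level of the cell cycle genes read further on was 78.7 to 97.3 FPKM in PFA-perfused and 40.0 to 65.3 in unperfused libraries. Injury-activated cells were compared with unperfused cells to ask what differs after injury. Of the 63 genes, 40 were higher (background 40.8% of all tested genes higher) and 13 lower (background 29.3%) at a limma adjusted p under 0.05. The median change was 1.05 on the log2 scale, against 0.17 over all tested genes. After trimmed mean scaling 34 were higher and 18 lower, with backgrounds of 36.2% and 36.8%, and the median was 0.67 against -0.06. By class, 32 of 44 snRNP genes were higher and 4 lower, while 8 of 19 hnRNP genes were higher and 9 lower. After scaling, 29 and 7 snRNP genes and 5 and 11 hnRNP genes were higher and lower. The gene with the highest rise was Lsm5 (4.17 ± 0.28, adjusted p = 2.9e-06), followed by Prpf31 (3.56 ± 0.29, adjusted p = 7.7e-06), and the deepest fall was that of Hnrnpl (-2.34 ± 0.25, adjusted p = 3.1e-05). Calls of 30 rises and 9 falls held under each of 16 alternative settings, among them other scalings, correction for length and GC content, and removal of any 1 library. The fall of Sf3a2 held under the 15 settings in which it was tested, as a filter of 5 FPKM removed it.

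**Figure D1:**
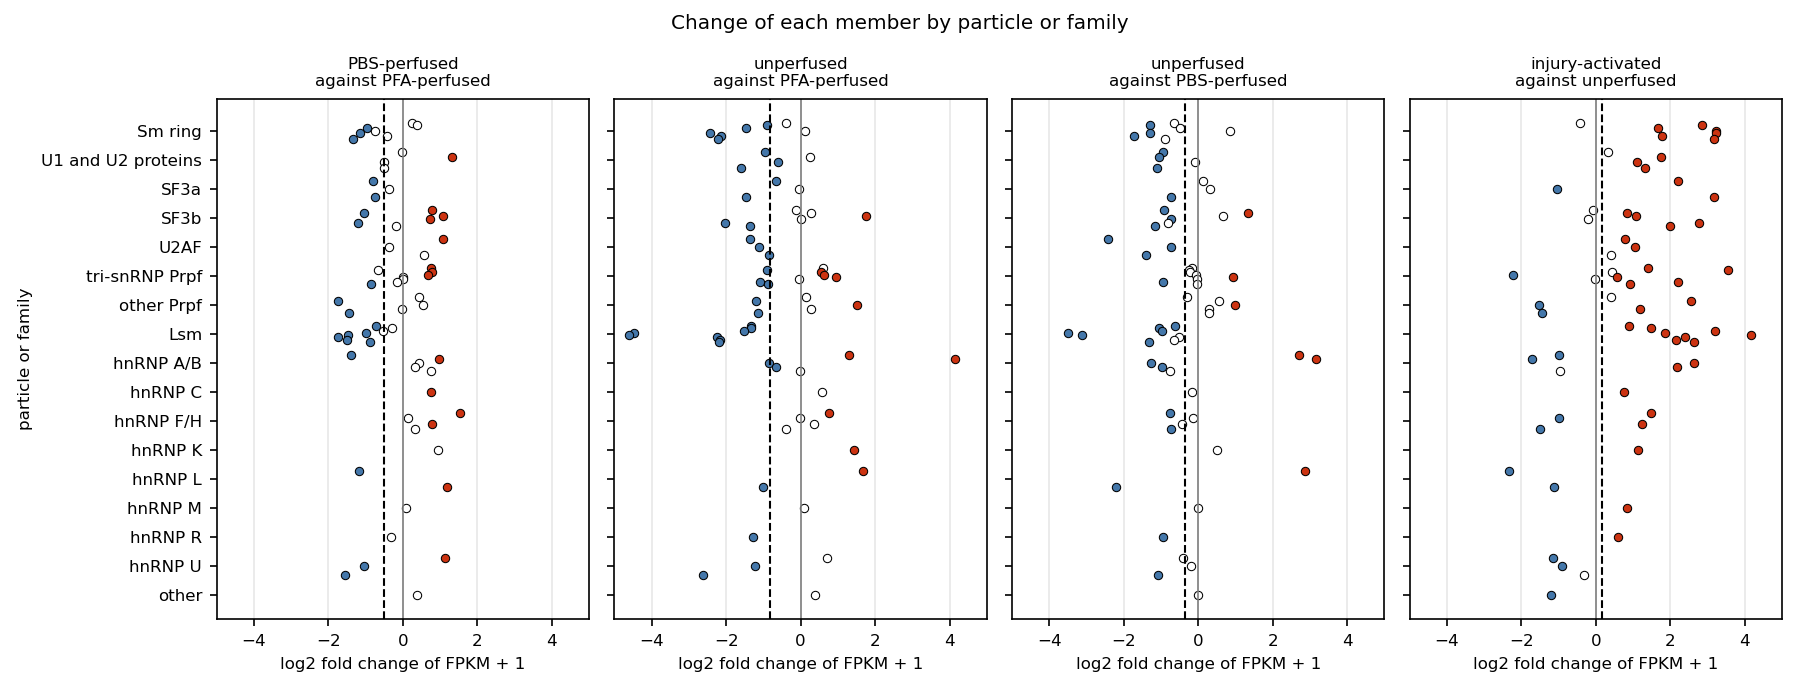
Log2 fold change of FPKM + 1 (x axis) of each of the 63 genes by particle or family (y axis) in the 4 comparisons; points are genes, red were called higher, blue lower and white not called by limma, and dashed lines mark the median of all 12515 tested genes. In injury-activated against unperfused cells all 8 Lsm genes and 6 of 7 Sm genes lie right of 0, and in unperfused against PFA-perfused cells all 8 Lsm genes lie left of 0.

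RefSeq promoters of GRCm38.p6, each from 250 bases before to 50 after a transcription start, were matched by symbol for 52 of the 63 genes, in 69 windows. To show what the promoters of the strongest movers look like, the 150 bases before the start are printed for genes whose call after injury held under each of the 16 settings. Among those with a single window and at least 10 FPKM in the higher group, the 4 that rose most come first and the 3 that fell most follow. Capitals mark CCAAT or its reverse complement ATTGG, the only motif marked. Coordinates are on GRCm38.p6, 5' to 3' on the gene's strand.
Lsm5, chr6:56704700-56704849, minus strand: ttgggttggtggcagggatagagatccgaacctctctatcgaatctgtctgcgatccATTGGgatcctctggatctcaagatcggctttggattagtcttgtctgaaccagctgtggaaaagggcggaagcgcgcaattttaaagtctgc
Prpf31, chr7:3629835-3629984, plus strand: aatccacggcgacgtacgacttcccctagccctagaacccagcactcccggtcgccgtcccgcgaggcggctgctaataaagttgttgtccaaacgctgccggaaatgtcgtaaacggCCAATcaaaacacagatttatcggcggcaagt
Snrpd3, chr10:75517892-75518041, plus strand: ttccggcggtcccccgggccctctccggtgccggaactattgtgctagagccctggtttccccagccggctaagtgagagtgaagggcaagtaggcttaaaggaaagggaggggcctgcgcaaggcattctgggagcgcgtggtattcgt
Snrpe, chr1:133610281-133610430, minus strand: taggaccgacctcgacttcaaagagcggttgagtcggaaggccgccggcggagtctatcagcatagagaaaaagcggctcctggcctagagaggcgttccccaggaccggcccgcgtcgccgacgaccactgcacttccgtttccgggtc
Hnrnpl, chr7:28810740-28810889, plus strand: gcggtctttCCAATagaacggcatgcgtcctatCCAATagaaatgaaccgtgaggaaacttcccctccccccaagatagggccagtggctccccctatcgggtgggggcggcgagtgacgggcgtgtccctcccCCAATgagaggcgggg
Prpf38b, chr3:108911730-108911879, minus strand: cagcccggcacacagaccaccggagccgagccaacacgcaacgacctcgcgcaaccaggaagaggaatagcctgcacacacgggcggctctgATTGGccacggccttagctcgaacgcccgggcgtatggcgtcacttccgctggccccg
Hnrnpa1, chr15:103240247-103240396, plus strand: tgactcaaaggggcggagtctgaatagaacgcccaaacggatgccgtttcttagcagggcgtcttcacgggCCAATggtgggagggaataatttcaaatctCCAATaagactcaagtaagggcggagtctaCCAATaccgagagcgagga
The printed stretches of Hnrnpl and Hnrnpa1 held 3 such matches each, those of Lsm5, Prpf31 and Prpf38b 1 each, and those of Snrpd3 and Snrpe none. Over the full windows, CCAAT on either strand was found in 52.2% of the 69 windows, in 65.4% of 26 hnRNP windows and in 44.2% of 43 snRNP windows. Among all tested genes it was found in 37.5% of 11887 windows, and among all 32851 promoters in 37.4%. The ETS core CCGGAAGT, on either strand, was found in 13.0% of windows of the 63 genes, against 7.86% for tested genes and 3.89% for all promoters. TATAAA was found in 5.80%, against 7.22% and 13.6%. CG occurred a median of 25 times per window, against 20 times for tested genes and 7 for all promoters. Matches of different motifs were counted separately even where they overlap, and a match is a description of the sequence, not of a factor's binding.

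The Sm proteins form the ring of 7 that closes around the RNA of the U1, U2, U4 and U5 snRNPs. After injury 6 of the 7 Sm genes were higher, also after trimmed mean scaling (median 2.84, and 2.44 scaled), all but Snrpb. Of all tested genes 40.8% were higher as deposited and 36.2% scaled, with medians of 0.17 and -0.06. Snrpe, whose promoter is printed above, stood at 290.5 and 253 FPKM after PFA perfusion, 118 and 125 after PBS perfusion, 62.6 and 38.4 without perfusion and 452 and 476 after injury. Both unperfused libraries were the lowest of the 8 and both injury-activated libraries the highest. Snrpe was higher in injury-activated than in unperfused cells by 3.22 ± 0.28 (adjusted p = 9.6e-06) and lower in unperfused than in PFA-perfused cells by -2.44 ± 0.28 (adjusted p = 4.4e-05, -1.25 scaled).

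Where levels are listed without group names, the groups follow the order just given for Snrpe. Snrpd3 stood at 54.1 and 35.0, 20.0 and 32.6, 68.2 and 32.8 and 437 and 463 FPKM. The unperfused pair overlapped the PFA-perfused pair and lay above the PBS-perfused pair, narrowly for 1 library, and both injury-activated libraries lay above all others (3.22 ± 0.38 against unperfused cells, adjusted p = 6.2e-05). Snrpg stood at 41.5 and 40.0, 11.3 and 21.2, 11.6 and 5.37 and 75.4 and 83.7 FPKM, with the injury-activated pair highest and the PFA-perfused pair next. It rose by 3.16 ± 0.36 after injury (adjusted p = 4.9e-05). Snrpd1, which pairs with the D2 protein in the ring, stood at 98.1 and 89.8, 110.5 and 136, 71.1 and 34.4 and 351 and 372 FPKM and rose by 2.84 ± 0.33 (adjusted p = 5.4e-05).

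As deposited, Snrpf rose after injury only to the level of the PBS-perfused cells. It stood at 41.4 and 39.3, 25.6 and 34.9, 9.91 and 6.96 and 29.0 and 33.0 FPKM. The injury-activated pair thus lay inside the range of the PBS-perfused pair and below the PFA-perfused pair, while the unperfused pair was lowest. The change after injury was 1.78 ± 0.24 (adjusted p = 1.4e-04), and that of unperfused against PFA-perfused cells -2.15 ± 0.24 (adjusted p = 4.1e-05, -1.02 scaled). Snrpb, the Sm gene with the highest mean level, stood at 469.8 and 406, 483 and 546, 453 and 240.3 and 249.7 and 239.5 FPKM. It did not pass the test after injury (-0.43 ± 0.33, adjusted p = 0.27), and its unperfused and injury-activated pairs overlapped. After scaling, the value was -0.84 and the gene was called lower.

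Among the proteins specific to U1 and U2, Snrpc (the C protein of U1, which steadies the pairing of U1 with the 5' splice site) stood at 102 and 72.2, 65.8 and 55.7, 33.4 and 22.9 and 69.5 and 71.1 FPKM. The unperfused pair was the lowest of the 4, and the change after injury was 1.31 ± 0.26 (adjusted p = 0.0016). Snrpa1, the A' protein of U2, stood at 55.6 and 44.4, 151 and 103, 81.2 and 43.8 and 195 and 208 FPKM. It was lowest in PFA-perfused and unperfused cells, which overlapped, and highest after injury (1.74 ± 0.33, adjusted p = 0.0011). The call of Snrpa1 in PBS-perfused against PFA-perfused cells (1.31 ± 0.33, adjusted p = 0.0069) was lost without replicate 2 of the PFA-perfused group (1.15).

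SF3a and SF3b are the parts of U2 that grip the branch point. After injury 2 of 3 SF3a genes and 4 of 6 SF3b genes were higher, and 1 SF3a gene was lower (background 40.8% higher and 29.3% lower). After scaling the SF3a counts were the same, and 3 SF3b genes were higher and 2 lower. Sf3b3, a scaffold subunit, was the most abundant of them at 124 and 124 FPKM after PFA perfusion, 327 and 211 after PBS perfusion, 463 and 383 without perfusion and 888 and 889 after injury. The 4 groups did not overlap and stood in that order from low to high. Sf3b3 was higher in PBS-perfused (1.08 ± 0.29, adjusted p = 0.0092) and in unperfused cells (1.76 ± 0.29, adjusted p = 4.2e-04) than in PFA-perfused cells, and both calls held under each alternative setting. Its rise after injury (1.08 ± 0.29, adjusted p = 0.0078) was lost when either injury-activated library was left out, with the value at 1.08 each time, and after quantile normalization (0.50).

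Sf3a3 stood at 25.6 and 20.3, 13.8 and 12.5, 9.14 and 6.24 and 73.8 and 78.9 FPKM, lowest in the unperfused pair. It rose by 3.17 ± 0.23 after injury (adjusted p = 4.0e-06). Sf3b5, a small subunit, stood at 20.5 and 19.7, 8.25 and 8.04, 6.47 and 2.63 and 33.1 and 36.7 FPKM with the same order of groups and rose by 2.78 ± 0.31 (adjusted p = 4.0e-05). Sf3b1, the subunit that holds the branch point helix, stood at 136 and 114, 220.1 and 214, 121 and 109 and 109.9 and 109 FPKM and did not pass the test after injury (-0.07 ± 0.22, adjusted p = 0.79). Within the SF3b complex, whose subunits are built into 1 particle, the changes after injury therefore ran from -0.22 to 2.78 on the log2 scale.

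U2AF reads the 3' end of the intron, its large subunit (U2af2) the pyrimidine tract and its small subunit (U2af1) the AG that follows. U2af1 stood at 71.9 and 61.5 FPKM after PFA perfusion, 175 and 114 after PBS perfusion, 27.1 and 23.6 without perfusion and 41.8 and 47.4 after injury. The PBS-perfused pair was highest and the unperfused pair lowest, with no overlap. U2af1 was lower in unperfused than in PBS-perfused cells by -2.43 ± 0.25 (adjusted p = 7.9e-05) and higher in PBS-perfused than in PFA-perfused cells by 1.07 ± 0.25 (adjusted p = 0.0053). U2af2 stood at 70.4 and 48.1, 64.7 and 115, 30.7 and 32.9 and 43.2 and 41.1 FPKM and was also lower in unperfused than in PBS-perfused cells (-1.41 ± 0.30, adjusted p = 0.0042). These 3 calls held under each alternative setting. After injury U2af2 did not pass the test (0.40 ± 0.30, adjusted p = 0.27).

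The Prpf genes code for factors named after yeast splicing mutants, and 7 of the 13 were higher after injury and 3 lower (6 and 3 after scaling). These are 53.8 and 23.1%, beside 40.8% and 29.3% of all tested genes. Prpf31, which holds U4 within the tri-snRNP, stood at 17.1 and 15.2 FPKM after PFA perfusion, 10.9 and 8.86 after PBS perfusion, 11.5 and 5.60 without perfusion and 104 and 108 after injury. The 6 libraries without injury lay between 5.60 and 17.1 FPKM, far below the injury-activated pair. Prpf8, the protein at the centre of U5 and of the catalytic site, stood at 93.8 and 82.7, 43.4 and 53.2, 53.3 and 41.9 and 90.4 and 90.4 FPKM. The PFA-perfused and injury-activated pairs overlapped as deposited, which can change with scaling. The change of Prpf8 after injury was 0.92 ± 0.23 (adjusted p = 0.005).

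Prpf19, the ubiquitin ligase of the complex that activates the spliceosome, stood at 10.1 and 10.6, 1.77 and 3.14, 4.13 and 3.85 and 27.4 and 29.2 FPKM. It rose by 2.55 ± 0.23 after injury (adjusted p = 1.1e-05) and was lower in PBS-perfused than in PFA-perfused cells by -1.74 ± 0.23 (adjusted p = 2.1e-04, -1.17 scaled). Prpf38b, by contrast, stood at 18.0 and 18.6, 30.6 and 28.9, 26.6 and 30.9 and 5.02 and 5.73 FPKM. Its injury-activated pair was the lowest of the 8 libraries, and the fall was -2.22 ± 0.19 (adjusted p = 9.8e-06). Prpf39, a U1-associated factor, stood at 24.7 and 22.6, 46.4 and 26.3, 65.1 and 75.0 and 24.3 and 22.9 FPKM, with the unperfused pair alone high. It was higher in unperfused than in PFA-perfused cells by 1.52 ± 0.27 (adjusted p = 7.1e-04) and lower after injury by -1.53 ± 0.27 (adjusted p = 7.7e-04).

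Prpf40b, which binds at the U1 step, stood at 21.7 and 20.1, 5.85 and 8.51, 9.92 and 8.03 and 2.49 and 2.80 FPKM. The injury-activated pair was the lowest and the PFA-perfused pair the highest, while the PBS-perfused and unperfused pairs overlapped. Its change after injury was -1.45 ± 0.22 (adjusted p = 3.2e-04) and was lower in PBS-perfused than in PFA-perfused cells (-1.44 ± 0.22, adjusted p = 5.4e-04). Both calls held under each alternative setting.

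**Figure D2:**
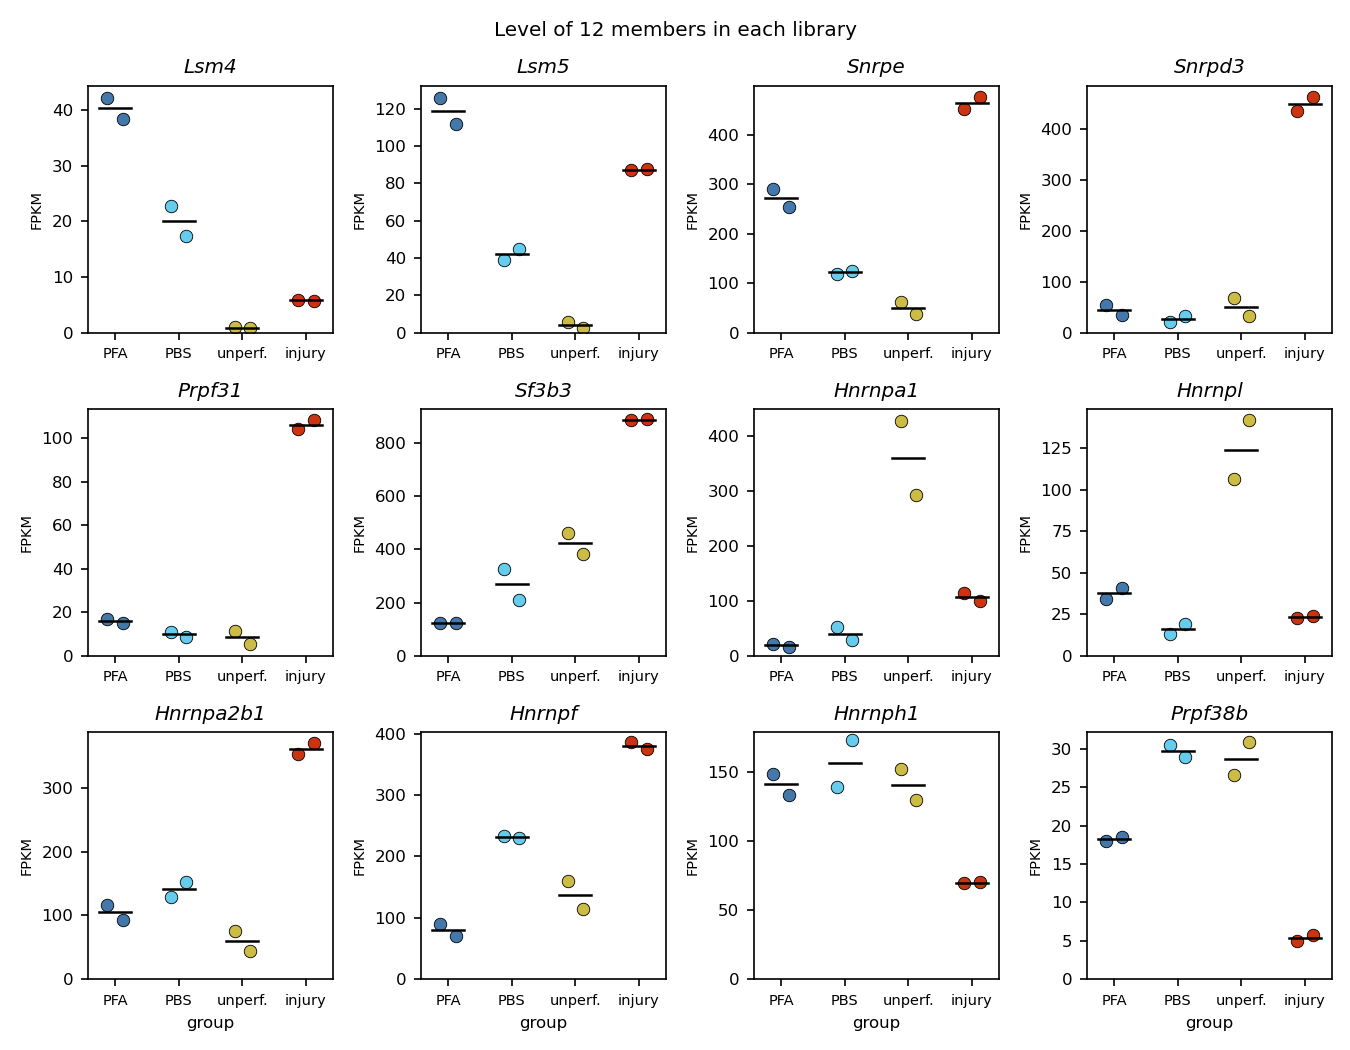
FPKM (y axis, linear and from 0, a scale of its own in each panel) of 12 of the genes in each library, by group (x axis); points are libraries and bars the mean of the 2 libraries of a group. Lsm4 and Lsm5 are lowest in unperfused cells, at 0.860 and 4.13 FPKM on average, whereas Hnrnpa1 and Hnrnpl are highest there.

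The Lsm proteins form rings like the Sm ring: Lsm2 to Lsm7 join Lsm8 in the nucleus, where they bind the end of U6, or Lsm1 in the cytoplasm, where they take part in mRNA decay. All 8 Lsm genes were higher after injury (median 2.28) and all 8 were higher after scaling (median 1.89). In unperfused against PFA-perfused cells all 8 were lower (median -2.18), 5 of them after scaling (median -1.03). Of all tested genes, 40.8% were higher after injury (36.2% scaled) and 56.3% were lower in unperfused than in PFA-perfused cells (31.9% scaled). The medians over all tested genes were 0.17 and -0.81 as deposited, and -0.06 and 0.05 scaled. Summed over the 8 genes, the level was 581 and 521 FPKM after PFA perfusion, 249 and 220.2 after PBS perfusion, 136 and 76.2 without perfusion and 674 and 722 after injury. Each Lsm gene had its lowest mean in unperfused cells.

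Lsm5 stood at 126 and 112 FPKM after PFA perfusion, 38.9 and 44.9 after PBS perfusion, 5.63 and 2.62 without perfusion and 87.3 and 87.6 after injury. The 4 groups did not overlap. Lsm5 was lower in unperfused than in PFA-perfused cells by -4.61 ± 0.28 (adjusted p = 2.0e-06, -3.52 scaled) and lower than in PBS-perfused cells by -3.13 ± 0.28 (adjusted p = 3.7e-05). Lsm4 stood at 42.2 and 38.4, 22.7 and 17.3, 0.951 and 0.770 and 5.83 and 5.77 FPKM, under 1 FPKM in the unperfused pair. Unlike the other 7 Lsm genes, Lsm4 stayed below both perfused groups after injury, and its change was -4.47 ± 0.20 in unperfused against PFA-perfused (adjusted p = 7.0e-07) and 1.87 ± 0.20 in injury-activated against unperfused cells (adjusted p = 3.6e-05).

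Lsm6, the most abundant by mean level, stood at 204 and 179, 60.2 and 52.5, 55.3 and 27.8 and 209.8 and 214 FPKM. As deposited, the injury-activated pair lay just above the PFA-perfused pair, and the other 2 pairs were lower and overlapped. Lsm3 stood at 85.4 and 79.0, 63.5 and 49.8, 36.0 and 21.7 and 249 and 285 FPKM, highest after injury (3.21 ± 0.28, adjusted p = 9.9e-06). Lsm7 stood at 66.4 and 58.7, 26.1 and 17.5, 18.2 and 9.52 and 58.9 and 65.5 FPKM and rose by 2.15 ± 0.31 (adjusted p = 2.2e-04).

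The partners that set the place of the ring were both lowest in unperfused cells. Lsm8, the nuclear partner, stood at 20.6 and 17.2, 11.2 and 8.53, 4.44 and 2.43 and 26.3 and 25.8 FPKM and rose by 2.65 ± 0.26 after injury (adjusted p = 2.0e-05). Lsm1, the cytoplasmic partner, stood at 7.66 and 5.75, 3.65 and 3.61, 2.36 and 1.70 and 4.66 and 4.52 FPKM and rose by 0.89 ± 0.20 (adjusted p = 0.0034). As deposited, Lsm8 in injury-activated cells lay above its PFA-perfused level and Lsm1 below its own, each without overlap. Trimmed mean scaling divides PFA-perfused levels by 1.65 and 1.52 and injury-activated ones by 0.930 and 0.889, so these orders can change with it. The difference between the changes of Lsm8 and Lsm1 after injury was not tested.

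**Figure D3:**
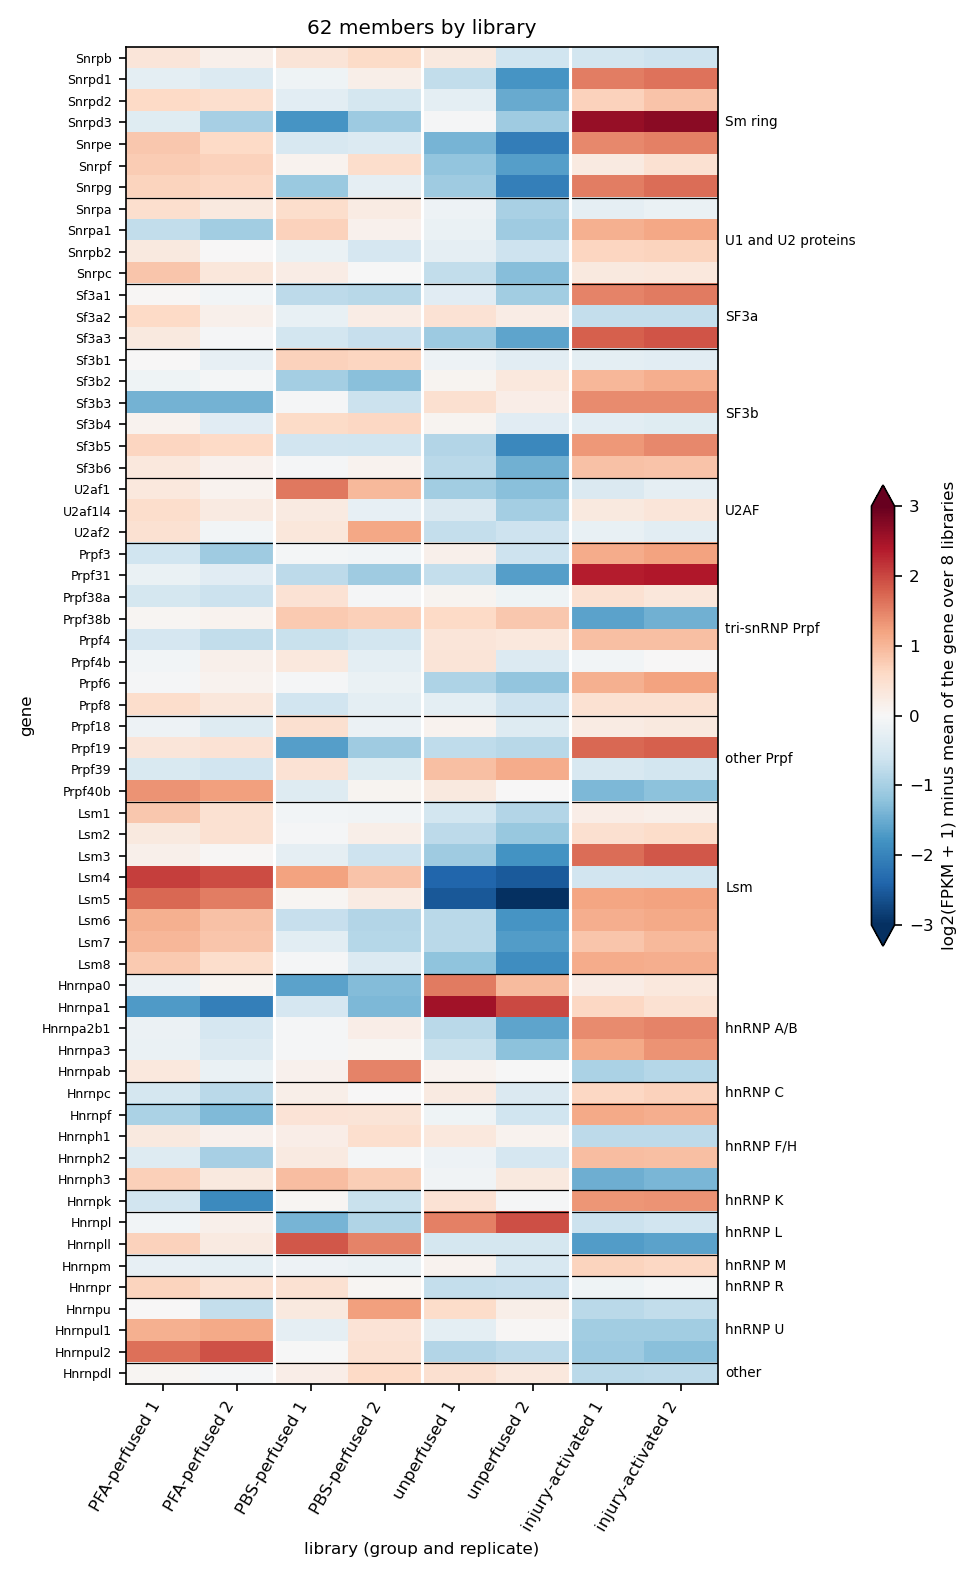
log2(FPKM + 1) of 62 of the 63 genes (y axis, by particle or family) in each of the 8 libraries (x axis), minus the mean of that gene over the 8 libraries; red is above and blue below that mean, and colours saturate at 3 units. The Lsm rows are above their means in the PFA-perfused columns, Lsm3 only slightly, and below them in the unperfused columns. The Hnrnpa1 row is the reverse, and the Hnrnpl row is above its mean in the unperfused and below it in the PBS-perfused and injury-activated columns.

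The hnRNPs moved in both directions after injury. Among them the A and B proteins, which bind purine-rich and UAG-containing stretches and often silence exons, split between paralogs. Hnrnpa1 stood at 21.7 and 16.9 FPKM after PFA perfusion, 51.7 and 28.4 after PBS perfusion, 428 and 293 without perfusion and 114 and 101 after injury. The unperfused pair was the highest and the PFA-perfused pair the lowest, with no overlap between these and the other groups. Hnrnpa1 was higher in unperfused than in PFA-perfused cells by 4.14 ± 0.32 (adjusted p = 5.6e-06) and than in PBS-perfused cells by 3.17 ± 0.32 (adjusted p = 6.7e-05), and lower after injury by -1.72 ± 0.32 (adjusted p = 0.0011). Hnrnpa1 has processed copies in the genome, and how the authors assigned reads shared with them is not given in the sources used here, so its level is uncertain.

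Hnrnpa2b1 stood at 116 and 93.3 FPKM after PFA perfusion, 129 and 152 after PBS perfusion, 75.2 and 43.6 without perfusion and 353 and 370.5 after injury. The order of the groups was thus the reverse of that of Hnrnpa1 for the unperfused and injury-activated pairs. Hnrnpa2b1 rose by 2.64 ± 0.29 after injury (adjusted p = 4.3e-05), and Hnrnpa3, at 48.2 and 41.3, 53.9 and 57.9, 34.3 and 22.7 and 122 and 142 FPKM, rose by 2.19 ± 0.25 (adjusted p = 4.6e-05). Hnrnpa0 followed the order of Hnrnpa1 in its high unperfused pair, at 29.6 and 35.7, 10.3 and 13.1, 101 and 65.8 and 39.4 and 42.5 FPKM. It was lower in PBS-perfused than in PFA-perfused cells (-1.41 ± 0.25, adjusted p = 0.0013) and higher in unperfused than in PBS-perfused cells (2.71 ± 0.25, adjusted p = 4.4e-05).

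The F and H proteins bind runs of G. After injury Hnrnpf and Hnrnph2 were higher, and Hnrnph1 and Hnrnph3 were lower, as deposited and after scaling. Hnrnpf stood at 90.6 and 69.8, 234 and 229.8, 160.2 and 115 and 386 and 375 FPKM, with no overlap between any of the groups. Its change was 1.48 ± 0.26 after injury (adjusted p = 7.2e-04) and 1.53 ± 0.26 in PBS-perfused against PFA-perfused cells (adjusted p = 8.9e-04).

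Hnrnph1 and Hnrnph2 are close paralogs. Hnrnph1 stood at 149 and 134, 139 and 174, 152 and 130.0 and 69.5 and 70.3 FPKM, so that the 6 libraries without injury overlapped and the injury-activated pair lay below them. Hnrnph2 stood at 57.7 and 37.2, 90.5 and 72.0, 67.9 and 52.7 and 145 and 142 FPKM, with the injury-activated pair above the rest. The changes after injury were -1.0 ± 0.23 for Hnrnph1 (adjusted p = 0.0036) and 1.25 ± 0.27 for Hnrnph2 (adjusted p = 0.0026), and -1.51 ± 0.23 for Hnrnph3 (adjusted p = 3.0e-04).

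Hnrnpl, which binds CA repeats, stood at 34.3 and 40.9 FPKM after PFA perfusion, 13.4 and 19.0 after PBS perfusion, 106 and 142 without perfusion and 22.8 and 24.0 after injury. The unperfused pair lay far above the other 6 libraries. Hnrnpl was higher in unperfused than in PBS-perfused cells by 2.87 ± 0.25 (adjusted p = 2.7e-05) and than in PFA-perfused cells by 1.69 ± 0.25 (adjusted p = 2.2e-04). Its paralog Hnrnpll stood at 26.9 and 19.6, 61.1 and 47.3, 10.9 and 11.0 and 4.39 and 4.59 FPKM, highest in the PBS-perfused pair. Hnrnpll was lower in unperfused than in PBS-perfused cells by -2.20 ± 0.22 (adjusted p = 6.9e-05), the opposite direction to Hnrnpl, and also fell after injury (-1.12 ± 0.22, adjusted p = 0.0016).

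Hnrnpk, which binds C-rich stretches, had the highest mean level of the 63 genes, at 395 and 157 FPKM after PFA perfusion, 608 and 371 after PBS perfusion, 797 and 575 without perfusion and 1464 and 1501 after injury. The injury-activated pair was highest, and the 2 PFA-perfused libraries differed from each other more than those of any other group. Its rise after injury (1.13 ± 0.45, adjusted p = 0.049) was lost when any of the 4 libraries compared was left out, with values from 0.89 to 1.36. It was also lost after trimmed mean scaling (0.72), after quantile normalization (0.65), with no filter (1.13) and with the GC and length correction (0.38). Hnrnpul2, a relative of the scaffold protein hnRNP U, stood at 31.6 and 37.9, 9.32 and 13.3, 4.61 and 4.98 and 3.85 and 3.37 FPKM, highest in the PFA-perfused pair. It was lower in PBS-perfused (-1.55 ± 0.22, adjusted p = 3.4e-04) and in unperfused cells (-2.62 ± 0.22, adjusted p = 8.6e-06) than in PFA-perfused cells. Hnrnpdl stood at 60.2 and 56.5, 66.1 and 87.4, 80.5 and 72.4 and 32.8 and 32.9 FPKM and fell after injury (-1.19 ± 0.22, adjusted p = 9.4e-04). The remaining hnRNP genes, of the C, M, R and U families and Hnrnpab and Hnrnpul1, changed by -1.14 to 0.83 after injury.

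Unperfused and PBS-perfused cells were each set against PFA-perfused cells to ask what differs from cells fixed in the animal. PBS-perfused cells differ from PFA-perfused cells in fixation and RNA kit, and unperfused cells differ in perfusion and genotype as well. Within each comparison these factors cannot be told apart. These comparisons share the PFA-perfused libraries, so their values are given side by side only. In PBS-perfused cells 14 of the 63 genes were higher (background 17.8%) and 20 lower (background 46.2%), with a median of -0.15 against -0.50 over all genes. In unperfused cells 10 were higher (background 17.4%) and 34 lower (background 56.3%), with a median of -0.66 against -0.81. After trimmed mean scaling the direction of the majority turned: 30 higher and 7 lower in PBS-perfused cells (backgrounds 28.9% and 25.6%) and 32 higher and 10 lower in unperfused cells (backgrounds 36% and 31.9%). The medians were then 0.47 and 0.50.

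Lsm genes called lower numbered 6 of 8 in PBS-perfused and 8 of 8 in unperfused cells, 3 and 5 after scaling, and none was called higher either way. Of 19 hnRNP genes, 6 were higher and 4 lower in PBS-perfused cells and 5 higher and 6 lower in unperfused cells. After scaling, 14 were higher and 2 lower in PBS-perfused cells (backgrounds 28.9% and 25.6%). In unperfused cells 14, not all the same genes by need, were then higher and 1 lower (backgrounds 36% and 31.9%). Calls that held under each alternative setting were, in PBS-perfused cells, 4 rises (Sf3b3, U2af1, Hnrnpf and Hnrnpll) and 7 falls (Prpf19, Prpf40b, Lsm5, Lsm6, Lsm7, Hnrnpa0 and Hnrnpul2). In unperfused cells they were 5 rises (Sf3b3, Prpf39, Hnrnpa0, Hnrnpa1 and Hnrnpl) and 10 falls (Snrpe, Snrpf, Snrpg, Sf3b5, Lsm4, Lsm5, Lsm6, Lsm7, Lsm8 and Hnrnpul2). Without replicate 2 of the PFA-perfused group, the rises numbered 5 in PBS-perfused and 6 in unperfused cells.

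Hnrnpa0 had values of opposite sign in these comparisons, -1.41 ± 0.25 in PBS-perfused and 1.3 ± 0.25 in unperfused cells (adjusted p = 0.0013). Hnrnpl showed the same contrast, -1.18 ± 0.25 and 1.69 ± 0.25, although the first was not called after scaling (-0.56). U2af1 and Hnrnpll had the reverse, with 1.07 ± 0.25 and -1.36 ± 0.25 for U2af1 and 1.19 ± 0.22 and -1.01 ± 0.22 for Hnrnpll. After scaling the unperfused values of these 2 genes were -0.18 and 0.13 and were not called.

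Unperfused and PBS-perfused cells, both unfixed, were compared with each other as well, on libraries that the earlier comparisons also used. Of the 63 genes 6 were higher (background 13.1%) and 27 lower (background 36.5%) in unperfused cells, with a median of -0.62 against -0.36 over all genes. After scaling 16 were higher and 13 lower (backgrounds 24.5% and 22.9%). The 4 rises that held under each setting were Sf3b2, Hnrnpa0, Hnrnpa1 and Hnrnpl, and the 12 falls included Lsm4 (-3.49 ± 0.20, adjusted p = 4.5e-06), Lsm5, U2af1, U2af2 and Hnrnpll. Sf3b2, a subunit of SF3b, stood at 144 and 150.5, 76.5 and 64.8, 166 and 194 and 311 and 332 FPKM in the 4 groups. Its change was 1.34 ± 0.23 (adjusted p = 0.0012), the PBS-perfused pair being the lowest.

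Other genes of the splicing pathway, 120 in 6 lists that the symbol rule does not take, of which 119 were tested, were read beside these. After injury 54 were higher and 30 lower (52 and 40 after scaling). These are 45.4 and 25.2%, beside the 40.8% and 29.3% of all tested genes, and 43.7 and 33.6% beside 36.2% and 36.8% after scaling. By list, of 26 Prp19-complex and catalytic step factors 17 were higher and 5 lower, of 16 snRNP assembly factors 10 and 1, and of 13 exon junction complex genes 8 and 1. Of 14 further U1 and U2 proteins 3 were higher and 7 lower, of 21 tri-snRNP and minor spliceosome proteins 8 and 6, and of 29 further splicing regulators 8 and 10. Scaled, the Prp19-complex, assembly and exon junction lists gave 17 and 5, 10 and 2, and 8 and 1. The U1 and U2, tri-snRNP and regulator lists then gave 3 and 10, 8 and 8, and 6 and 14. From here on, FPKM levels with ± are the mean and standard deviation of a group's 2 libraries, while changes keep limma's standard error. Ppil1, a peptidyl-prolyl isomerase of the activated spliceosome, went from 1.5 ± 0.894 FPKM in unperfused to 111 ± 3.35 in injury-activated cells (5.53 ± 0.25, adjusted p = 5.7e-07). Snrnp200, the helicase that unwinds U4 from U6, went from 77.7 ± 18.7 to 626 ± 36.1 (3.01 ± 0.28).

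Gemin6, of the SMN complex that loads Sm rings onto snRNA, went from 7.13 ± 1.26 to 66.7 ± 1.45 FPKM after injury (3.07 ± 0.29, adjusted p = 1.6e-05). Mbnl3, a muscleblind splicing regulator, went from 1.92 ± 1.09 to 59.3 ± 5.62 (4.42 ± 0.26, adjusted p = 1.5e-06). Luc7l3, a U1-associated protein, fell from 170.2 ± 11.2 to 39.3 ± 2.16 (-2.09 ± 0.23, adjusted p = 4.0e-05).

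In the comparisons with PFA-perfused cells, 14 of these genes were higher and 29 lower in PBS-perfused cells and 19 higher and 58 lower in unperfused cells (49 and 11, and 58 and 17, after scaling). As deposited these are 11.8 and 24.4% beside 17.8% and 46.2% of all tested genes, and 16.0 and 48.7% beside 17.4% and 56.3%. After scaling they are 41.2 and 9.24% beside 28.9% and 25.6%, and 48.7 and 14.3% beside 36% and 31.9%. Snrnp70, the U1-70K protein, went from 115 ± 15.4 FPKM in PFA-perfused to 23.2 ± 1.65 in unperfused cells (-2.26 ± 0.22, adjusted p = 2.1e-05). Mbnl1, a muscleblind protein, went from 25.9 ± 1.15 to 359 ± 137 (3.69 ± 0.44, adjusted p = 6.5e-05). Sf1, which binds the branch point before U2 does, stood at 177 ± 40.9 in PBS-perfused against 65.7 ± 0.501 in PFA-perfused cells (1.39 ± 0.23, adjusted p = 6.9e-04). In unperfused against PBS-perfused cells 16 were higher and 40 lower (38 and 20 after scaling), or 13.4 and 33.6% beside 13.1% and 36.5% of all tested genes (31.9 and 16.8% beside 24.5% and 22.9% after scaling).

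Transcript length, the median over a gene's protein-coding transcripts in GENCODE M21, moved with the changes, least in PBS-perfused against PFA-perfused cells. Short annotated forms count in this median. The 15 Sm and Lsm genes have a median length of 861 bases, the 19 hnRNP genes 2168 and all tested genes with a length 2177. Across the 63 genes Spearman's rho of length with the change was 0.40 for unperfused against PFA-perfused and -0.37 for injury-activated against unperfused cells. For PBS-perfused against PFA-perfused cells it was 0.10, and for unperfused against PBS-perfused cells 0.48. Across the 11348 tested genes with a length it was 0.25, -0.26, 0.12 and 0.24 in the same order. These correlations run over genes of the same libraries, which are not independent, and are descriptions without a test. Among all genes under 1 kb, 58.1% were higher and 18.5% lower after injury, against 25.9% and 42.9% of genes over 4 kb. Of the 15 of the 63 genes under 1 kb, 14 were higher and 1 lower. Among the 14, Hnrnpk (952 bases), U2af1 and U2af1l4 lost their calls with a correction for GC content and length. The calls of the 14 Sm and Lsm genes that rose after injury all held with a correction for GC content and length.

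**Figure D4:**
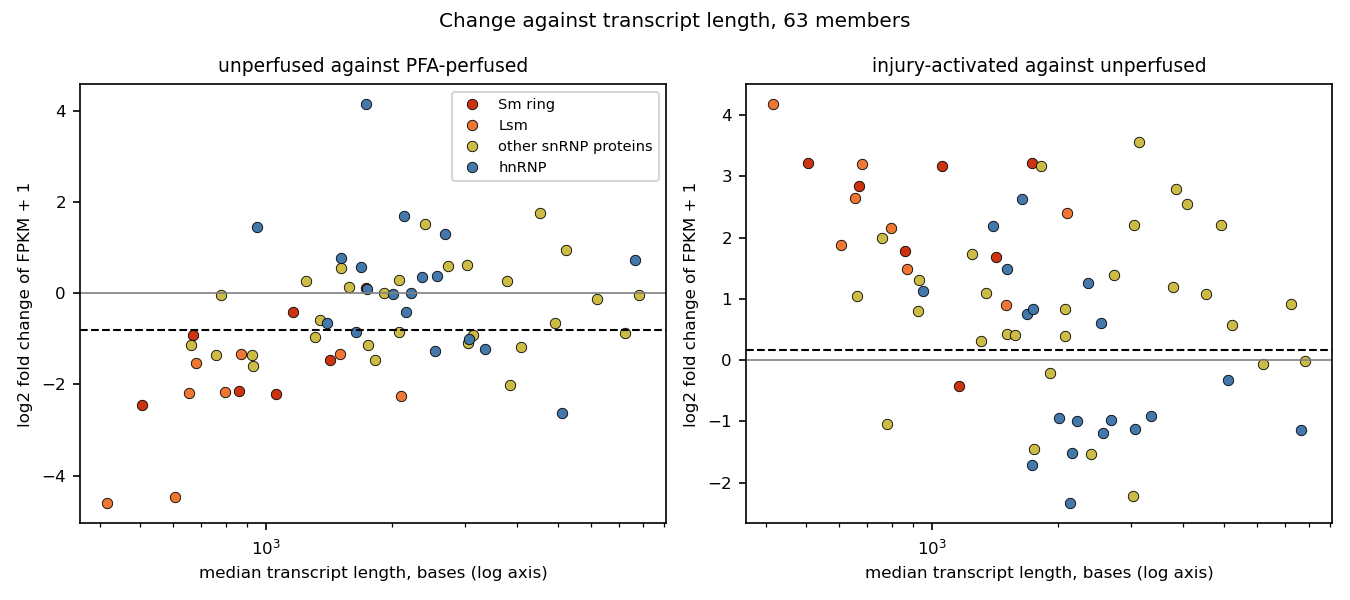
Log2 fold change of FPKM + 1 (y axis) against median transcript length in bases (x axis, log scale) for the 63 genes in unperfused against PFA-perfused (left) and injury-activated against unperfused cells (right); points are genes coloured by class, and dashed lines mark the median of all 12515 tested genes. The 15 Sm and Lsm genes are 416 to 2107 bases long, and 14 of them lie below 0 on the left (all but Snrpd3) and 14 above 0 on the right (all but Snrpb).

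Markers of cell cycling and of other cell types moved between the same groups. The summed level of 12 cell cycle genes ranged from 1242 to 1316 FPKM in injury-activated and from 40.0 to 65.3 in unperfused libraries. Of these 12, 11 were higher after injury, as deposited and scaled (backgrounds 40.8% and 36.2%). The sum of 10 myofibre markers ranged from 244 to 283 against 37.5 to 41.1, that of 10 haematopoietic markers from 62.0 to 69.0 against 27.0 to 38.9, and that of 10 fibro-adipogenic markers from 169.7 to 191 against 882 to 1114. Of the 9 fibro-adipogenic markers tested, however, 5 were higher and 3 lower after injury (backgrounds 40.8% and 29.3%), with a median change of 2.11. For 10 endothelial markers the sum was 6.53 to 7.16 after injury, 27.5 to 40.7 in unperfused, 152 to 228 in PBS-perfused and 62.3 to 67.4 in PFA-perfused cells. Of the haematopoietic markers Itgam was at 0 in both PFA-perfused and Adgre1 in both unperfused libraries. The part of these differences in the changes of the 63 genes was not tested.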

How the data were processed

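RNA of 8 libraries in 4 groups was analysed from 1 table of gene symbols by library. Its header names no unit. The values as deposited were taken as FPKM, since they hold decimals, their sums differ between libraries and StringTie can write FPKM. Per the submitters' processing notes, STAR 2.5.3a, StringTie 1.3.3 and R 3.4.1 were used with mm9, without stated roles or settings. How reads with several matches were treated is not given in the sources used here. The depth of each library is unknown, so no counting error could be given.

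FPKM was used as log2(FPKM + 1), for genes that reached 1 FPKM in 2 or more libraries. The 8 libraries entered 1 fit in limma 3.58.1 (R 4.3.3), with a variance trend and no covariate, from which 4 contrasts were taken, and p-values were adjusted by Benjamini-Hochberg over all 12515 genes, two-sided. A gene was called at an adjusted p under 0.05. The code was tested on simulated data. Named members were up to 10 rises and 10 falls per comparison by size of change, among those called as deposited and after trimmed mean scaling with at least 10 FPKM in the higher group, with the most abundant gene of each family and close paralogs; 1 of the 63 genes enters the counts and is not reported here by name. The gene choice, the lists and the tests were made with earlier results of these data known. Alternatives were the replicate number as a block, only the 2 groups compared, no filter, a filter of 5 FPKM, a pseudocount of 0.1, trimmed mean scaling (trims of 0.3 and 0.05), quantile normalization and each library left out. A correction for GC content and length (splines with 5 degrees of freedom) was added after seeing the data, for the 90.7% of tested genes with a GENCODE M21 length. The files are on mm9 and the annotation on GRCm38, so gene coordinates are not given.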

Additional observations from a re-analysis of the deposited data

How the results depend on the processing

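Scaling was the choice that mattered most for the counts of called genes. Among the 63 genes, trimmed mean scaling gave 30 higher and 7 lower in PBS-perfused against PFA-perfused cells, 32 higher and 10 lower in unperfused against PFA-perfused cells, and 16 higher and 13 lower in unperfused against PBS-perfused cells, where the deposited values gave 14 and 20, 10 and 34, and 6 and 27. Quantile normalization gave 19 and 12 higher in the last 2 comparisons. For PBS-perfused against PFA-perfused cells, fits with no filter and with the GC and length correction, the latter chosen after seeing the data, each gave 9 higher. Leaving out 1 library gave 5 to 14 higher in that comparison, with the lowest count without replicate 2 of the PFA-perfused group, and 6 to 12 higher in unperfused against PFA-perfused cells, lowest without the same library. The 40 rises and 13 falls after injury stayed within 32 to 40 and 11 to 18 over the 16 alternatives. Trimmed mean scaling gave 34 and 18 and quantile normalization 32 and 17, and the other settings gave 11 to 14 falls. The spread of a group left with 1 library was taken from the remaining groups. The share of all tested genes called also moved with trimmed mean scaling, as given above, and is not given here for the other settings. Whether these shifts are particular to the 63 genes was not tested, nor was their cause.

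After trimmed mean scaling 14 log2 changes of named genes that were called before or after it turned sign: in unperfused against PFA-perfused cells Hnrnpa2b1 to 0.34, Hnrnpa3 to 0.51, Hnrnph1 to 1.19, Hnrnph3 to 0.74, Hnrnpll to 0.13, Prpf31 to 0.19, Prpf8 to 0.30, Sf3a1 to 0.50, Sf3b1 to 1.08, Snrpb to 0.80, Snrpd1 to 0.28 and U2af2 to 0.33. In unperfused against PBS-perfused cells Hnrnpm turned to 0.54 and Prpf8 to 0.53. Under the other settings no named change that was called, before or after, turned sign.

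The replicate numbers were checked for pairing. Same-numbered libraries of different groups correlated in their deviations at -0.05 to 0.12. Low correlations cannot exclude that same-numbered libraries were handled together. With the replicate number as a block, 15 were higher and 21 lower in PBS-perfused against PFA-perfused cells, 28 lower in unperfused against PBS-perfused cells, and the other counts were as without it.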
